A study of Prunus persica with 2 samples.

Results

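Intronless annotated genes of wounded peach fruit (Prunus persica) were described in an RNA sequencing series of 2 libraries. A gene was counted as intronless when every transcript deposited under its name, annotated or newly assembled, had 1 exon. It was counted as measured when it reached 1 FPKM (fragments per kilobase of transcript, scaled to library size) in at least 1 library. There were 5064 intronless genes among 26873 annotated genes, and 1436 of them were measured. They made up 10.1% of the 14268 annotated genes measured.

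Both libraries came from wound tissue, and each treatment had 1 library with no replicate. The control wounds received 30 μL of sterile water. The treated wounds received 30 μL of a suspension of Pichia membranaefaciens, a yeast studied for the biological control of fruit rot. Wounded fruit stayed in an incubator at 28 °C under 95% relative humidity until sampling on day 3. How many fruit made up a library, their cultivar and their age are unknown here. The series asked which genes connected with resistance differ between tissue with and without the yeast.

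Intronless genes carry their whole message in 1 exon, so their transcripts need no splicing. In plants they are known to arise by the copying of processed messages back into the genome and by the tandem duplication of genes that already lacked introns. Large plant families such as the pentatricopeptide repeat proteins of organelle RNA processing, the F-box proteins of protein turnover and the ethylene response factors hold many intronless genes. Which of the genes below belong to such families is not known here, because the files pair no identifier with a gene name or product and none (0) matched the RefSeq gene table. For the same reason the wound tissue label was not checked against marker genes, and genes are described by identifier, position, length and level.

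Transcript coverage put the depth at 8.04 gigabases of fragments in the control library and 7.54 gigabases in the treated library. Differences are those of log2(FPKM + 1), treated minus control, and a gene counts as higher or lower from a difference of 1 in size. Since neither group was replicated, no error between fruit and no test can be given. Ratios carry 95% intervals from fragment numbers (exact, Clopper-Pearson), which hold counting error alone. In such bulk tissue, fewer cells of a type and less RNA per cell cannot be told apart.

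Few intronless genes reached a measurable level. In the annotation as a whole 58.8% of the 21809 spliced genes were measured, compared with 28.4% of the intronless genes. Another 3628 intronless genes stayed under 1 FPKM in both libraries, and 1993 of these were listed at 0 in both. Of the members, 1253 reached 1 FPKM in both libraries, 79 in the control alone and 104 in the yeast-treated library alone. Members made up 9.42% to 10.7% of the measured annotated genes of each of the 8 pseudomolecules Pp01 to Pp08, and 5 members lay on unplaced scaffolds. The strands held 784 members on plus and 652 on minus.

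The share of intronless genes that was measured was larger in longer classes. Length is that of the annotated transcript, of which every member has 1. Of 1196 intronless genes under 600 bases, 233 (19.5%) were measured. Of 2429 with 600 to 1500 bases, 635 (26.1%) were, and of 1439 over 1500 bases, 568 (39.5%). The shares among spliced genes of the same classes were 22.5%, 50.3% and 67.5%, so the 2 kinds of gene lay closest in the shortest class. Members ran from 111 to 8832 bases. Lengths that are whole multiples of 3, as those of bare coding sequences are, were seen in 61.4% of members under 600 bases, 42.5% of those with 600 to 1500 and 40.1% of those over 1500. Spliced genes had 64.0%, 37.0% and 34.3%, a larger share than members in the shortest class and smaller shares in the longer ones.

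Median levels of members lay below those of spliced genes in each class, although the ranges overlapped widely. Under 600 bases the median was 3.78 FPKM in the control against 4.41 FPKM with the yeast, compared with 6.85 and 7.40 FPKM for spliced genes. With 600 to 1500 bases the median was 6.25 and 6.40 FPKM, compared with 16.8 and 15.8 FPKM. Over 1500 bases it was 4.50 and 4.71 FPKM, compared with 9.91 and 10.3 FPKM. The middle class thus had the highest median of the 3 classes, among members and among spliced genes alike. The middle 50% of members ran from 1.36 to 20.8 FPKM under 600 bases, from 1.91 to 25.95 FPKM with 600 to 1500, and from 1.68 to 14.4 FPKM over 1500, all in the control. Short members also rested on fewer reads: the median was 39 fragments under 600 bases, 157 with 600 to 1500 and 252 over 1500 in the control library. Spliced genes under 600 bases had a median of 10 fragments on their own annotated transcripts there, fewer than members despite the higher median FPKM. The part of new transcripts and merged loci in their gene values was not tested, so comparisons with spliced genes in that class are uncertain.

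**Figure D1:**
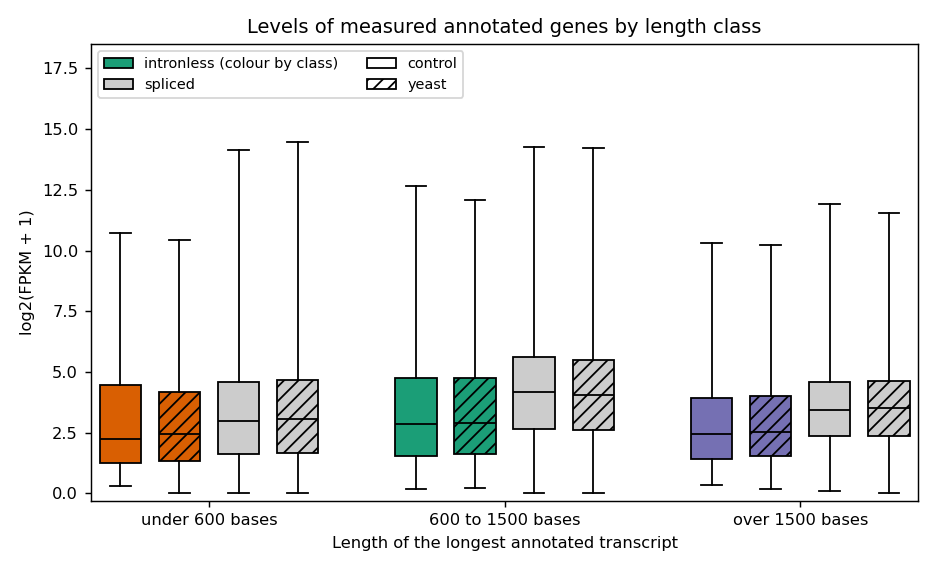
Levels of measured annotated genes as log2(FPKM + 1) by length class, with intronless genes in colour, spliced genes in grey and the yeast-treated library hatched. Boxes span the quartiles with a line at the median, and whiskers reach the lowest and highest gene. Control medians of intronless genes, 3.78, 6.25 and 4.50 FPKM, lie below those of spliced genes, 6.85, 16.8 and 9.91 FPKM.

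A small number of intronless genes were very abundant, and the differences of the 10 highest lay between -0.596 and 0.045. Members took 9.91% of the FPKM of all gene rows in the control and 9.19% in the yeast-treated library, and the 10 most abundant made up 37.2% and 34.0% of that. The highest was Prupe.6G310300, a gene of 816 bases on the minus strand of Pp06 from 27832401 to 27833216. It had 6472 FPKM in the control against 4283 FPKM with the yeast, a difference of -0.60. None (0) of these 10 genes passed a difference of 1, and 9 of them stood below their control value. Spliced genes at 100 FPKM or more seldom passed it either, with 1.2% higher and 0.958% lower. How many equally abundant spliced genes stood below their control value was not counted.

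Among the other most abundant genes of 600 to 1500 bases were neighbours on Pp02. Prupe.2G279900, on the minus strand from 27943416 to 27944548, had 2576 FPKM in the control against 2537 FPKM with the yeast. Prupe.2G279800, on the plus strand from 27940209 to 27941321, had 2470.2 and 2088 FPKM. They lie between members of low level, Prupe.2G279700 with 5.75 and 7.04 FPKM and Prupe.2G280000 with 2.08 and 1.33 FPKM. Levels within this group of 4 intronless neighbours therefore differed far more between genes than between libraries.

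The most abundant members under 600 bases were Prupe.1G540800, Prupe.1G396100 and Prupe.5G041600. Prupe.1G540800, 210 bases on the plus strand of Pp01 from 44185134 to 44185343, had 1665 FPKM in the control against 1381 FPKM with the yeast. Prupe.1G396100, 559 bases on Pp01 from 35138652 to 35139210, had 957 and 822 FPKM, and Prupe.5G041600, 234 bases on Pp05 from 4553639 to 4553872, had 891 and 919 FPKM. All 3 lay within a difference of 0.27 in size. Over 1500 bases the order was Prupe.7G261300 with 1263 and 1214 FPKM, Prupe.4G150100 with 795 and 799 FPKM and Prupe.4G082000 with 635 and 495 FPKM. Prupe.4G082000 had the largest difference of these 3, -0.36, and a ratio of 0.780 (counting interval 0.769 to 0.791). It overlaps another gene's transcript listed on another strand or without a strand, whose part in this value was not tested.

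Most intronless genes stood at a similar level with and without the yeast. Of the 1436 members, 1353 (94.2%) differed by less than 1, and 1118 (77.9%) by less than 0.5. The yeast-treated library was higher at 46 members (3.20%), compared with 1.45% of all annotated genes measured. It was lower at 37 members (2.58%), compared with 1.58% of all annotated genes measured. Among spliced genes 161 (1.25%) were higher and 189 (1.47%) lower. The median difference was 0.04 over members and 0.02 over all annotated genes, and the central 90% lay between -0.66 and 0.82, compared with -0.56 and 0.55. Whether these shares differ beyond the spread between fruit cannot be tested with 1 library per group.

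**Figure D2:**
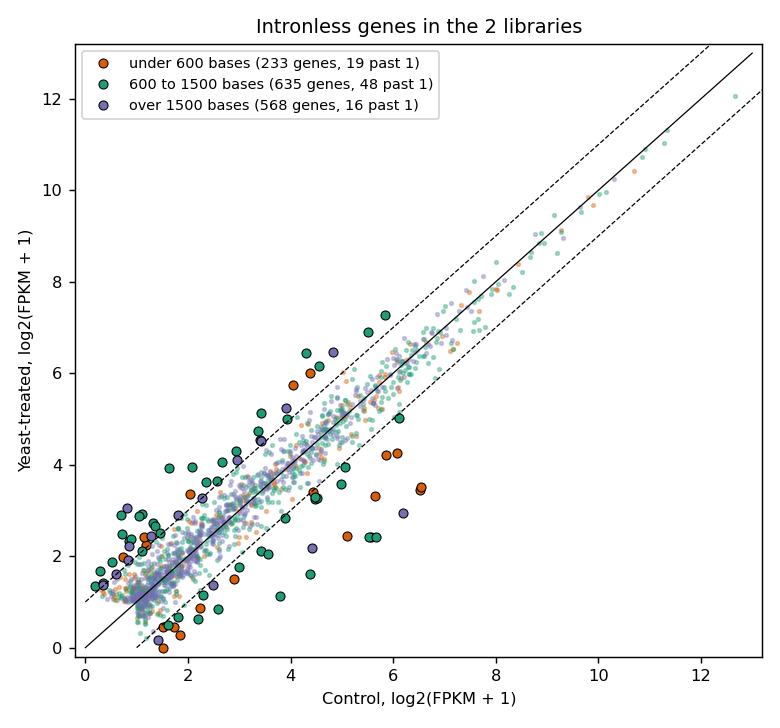
Each point is 1 of the 1436 intronless genes, placed by log2(FPKM + 1) in the control (x) and in the yeast-treated library (y) and coloured by length class. The solid line marks equal values and the dashed lines a difference of 1. Outlined points are the 46 genes above and the 37 below these lines.

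At a difference of 2 or more, with the pseudocount of 1, the balance of directions was another one. There were 4 higher members (0.279%, compared with 0.224% of all annotated genes measured) and 11 lower ones (0.766%, compared with 0.329%). The 11 had ratios between 0.0870 and 0.183. The pseudocount kept some genes of low level short of this limit, in either direction. Prupe.1G090500 had a ratio of 11.5 at a difference of 1.16, and Prupe.6G332700 a ratio of 0.0773 at a difference of -1.25. By level, 12 of the 280 members with a mean of 20 to 100 FPKM were lower (4.29%), compared with 24 of 3477 spliced genes (0.69%). In the same range 9 members (3.21%) and 36 spliced genes (1.04%) were higher. Below 5 FPKM the shares of lower genes were 2.00% of 700 members and 2.61% of 3599 spliced genes, and those of higher genes were 3.43% and 1.78%. In that range members thus had the smaller share of lower genes and the larger share of higher ones. Of the 82 members at 100 FPKM or more, 1 was past a difference of 1, Prupe.2G305200, with 56.7 FPKM in the control against 153 FPKM with the yeast. At this level 1.22% of members were thus higher and none (0) lower. Of 835 spliced genes at the same level, 10 were higher and 8 (0.958%) lower, so the shares of higher genes were close.

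The calls were spread unevenly over the length classes. Under 600 bases, 6 of 233 members were higher (2.58%) and 13 lower (5.58%), and among spliced genes of that class 2.10% were higher and 2.40% lower. With 600 to 1500 bases, 28 of 635 were higher (4.41%) and 20 lower (3.15%), compared with 1.84% and 1.56% of spliced genes. Over 1500 bases, 12 of 568 were higher (2.11%) and 4 lower (0.704%), compared with 0.987% and 1.40% of spliced genes. Lower genes thus outnumbered higher ones in the shortest class, and higher ones outnumbered lower ones in the other 2 classes, but these directions depended on the settings. With a pseudocount of 0.1 the shortest class had 21 higher and 17 lower members. At a difference of 2 the middle class had 3 higher and 5 lower members, and the longest class 1 and 2. Median differences were 0.03, 0.001 and 0.08 from the shortest class to the longest. Depth moved with length too: 42.5% of members under 600 bases had fewer than 30 fragments in both libraries, compared with 8.50% and 0.528% in the longer classes. Among spliced genes, counted on their own annotated transcripts, these shares were 66.4%, 10.7% and 3.50%. The part of depth in the shares was not tested.

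**Figure D3:**
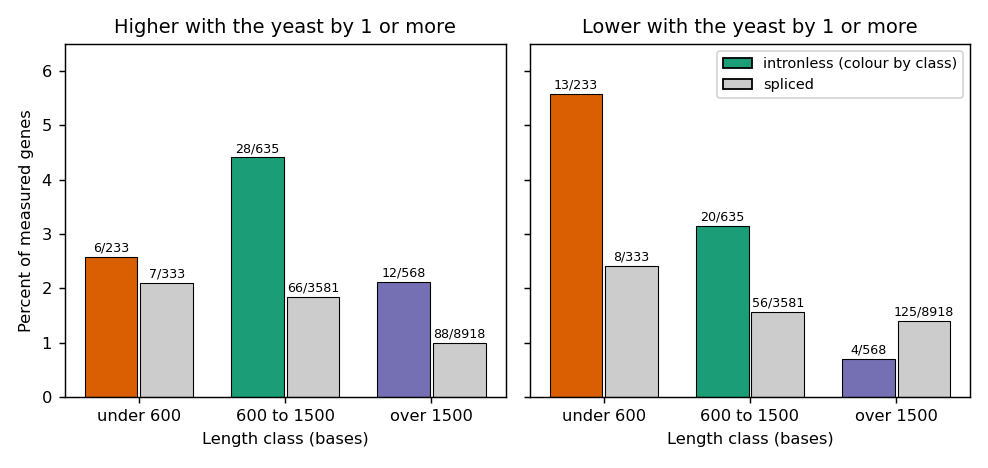
Percent of measured genes that were higher (left) or lower (right) by 1 or more in the yeast-treated library, by length class, for intronless genes in colour and spliced genes in grey, with the number of genes above each bar. The tallest bar is that of lower intronless genes under 600 bases, 13 of 233, and the shortest that of lower intronless genes over 1500 bases, 4 of 568.

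Among members under 600 bases, the genes with the largest upward differences were a pair of neighbours on Pp07. Prupe.7G160500, 482 bases on the plus strand from 16687391 to 16687872, had 19.9 FPKM in the control against 63.0 FPKM with the yeast. Prupe.7G160600, 539 bases on the same strand from 16687928 to 16688466, had 15.6 and 52.6 FPKM. Their differences were 1.61 and 1.69, their ratios 3.16 (counting interval 2.75 to 3.66) and 3.36 (2.89 to 3.92), and 55 bases separate them. The third, Prupe.5G104300 on Pp05 from 11103629 to 11104167, had 3.10 and 9.33 FPKM, a difference of 1.33. The other 3 higher genes of the class were Prupe.8G101600, Prupe.8G065600 and Prupe.1G314200. They had 0.654 to 1.27 FPKM in the control and 2.98 to 4.37 FPKM in the yeast-treated library, with differences from 1.07 to 1.27.

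Lower members under 600 bases reached 92.3 FPKM in the control, while higher ones reached 63.0 FPKM in the yeast-treated library. Prupe.4G054300, 452 bases on the minus strand of Pp04 from 2619509 to 2619960, had 90.4 FPKM in the control against 9.86 FPKM with the yeast, a ratio of 0.109 (counting interval 0.0890 to 0.133). Prupe.7G028400, 312 bases on the minus strand of Pp07 from 5277134 to 5277445, had 92.3 and 10.4 FPKM, a ratio of 0.113. Prupe.6G016200, 455 bases on the plus strand of Pp06 from 1164480 to 1164934, had 33.3 and 4.43 FPKM. The differences of these 3 were -3.07, -3.03 and -2.66, and their control values rested on 1095, 772 and 406 fragments.

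The other 10 lower genes of the class differed widely in depth. Prupe.5G134000, Prupe.3G217200, Prupe.6G081300 and Prupe.1G498300 had 49.0, 66.2, 57.1 and 20.8 FPKM in the control and 8.96, 18.0, 17.7 and 9.61 FPKM in the yeast-treated library. The others were Prupe.5G154200, Prupe.8G153100, Prupe.8G081800, Prupe.4G039200, Prupe.7G039300 and Prupe.1G498900, with 10 to 48 fragments in the control. Prupe.7G039300, with 10 and 2 fragments, is the single gene of all 83 past the difference whose counting interval reached a ratio of 1 (0.0227 to 1.001). Its 204 bases are fewer than the 300 taken as 1 fragment, so its fragment numbers and interval are approximate. Prupe.1G498900 had 1.84 FPKM in the control against a listed 0 with the yeast, which at a floor of 3 fragments is at least 8.13-fold lower if the control value is taken as exact. The counting interval of its ratio, which also covers the control, reached up to 0.163.

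In the middle class, of 600 to 1500 bases, the largest upward difference was at Prupe.3G035000. This gene of 768 bases on the plus strand of Pp03, from 2557789 to 2558556, had 2.10 FPKM in the control against 14.1 FPKM with the yeast, a difference of 2.29 and a ratio of 6.74 (counting interval 4.90 to 9.57). Prupe.5G109500, 1058 bases on the minus strand of Pp05 from 11450360 to 11451417, had 0.608 and 6.48 FPKM, a ratio of 10.7 (6.55 to 18.95). Prupe.1G183200, a minus-strand gene of 893 bases on Pp01 from 16208305 to 16209197, was listed with 18.6 and 85.5 FPKM, a difference of 2.14. Its value is uncertain, because it lies in a locus that the authors' assembly merged with other genes. Its own transcript had 0.410 FPKM in the control against 81.7 FPKM with the yeast, while a new transcript of the same strand that spans it had 37.5 and 23.5 FPKM.

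The largest downward differences of the middle class were nearly equal in size, on 2 chromosomes. Prupe.6G021100, 754 bases on the plus strand of Pp06 from 1715348 to 1716101, had 49.9 FPKM in the control against 4.35 FPKM with the yeast, a difference of -3.25. Prupe.2G232000, from 25578221 to 25579128 on the minus strand of Pp02, had 46.5 and 4.31 FPKM, and Prupe.2G232200, from 25587953 to 25588594 on the same strand, had 44.9 and 4.33 FPKM. The 3 ratios were 0.0870 (counting interval 0.0683 to 0.109), 0.0928 (0.0744 to 0.114) and 0.0965 (0.0745 to 0.123), which overlap. Those 3 genes thus had alike levels in each library as well as alike ratios. Prupe.6G021700, 36207 bases from Prupe.6G021100 on the other strand, had 19.8 and 2.05 FPKM, and Prupe.6G250100 on the same chromosome had 12.9 and 1.19 FPKM.

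The remaining calls of the middle class were less extreme. In the upward direction 25 further genes had differences from 1.02 to 1.88, with 0.133 to 56.7 FPKM in the control and 1.53 to 153 FPKM in the yeast-treated library. From the largest difference down they were Prupe.1G146400, Prupe.8G064100, Prupe.5G108900, Prupe.8G121500, Prupe.4G166100, Prupe.4G166200, Prupe.3G245400, Prupe.3G245300, Prupe.2G305200, Prupe.1G120600, Prupe.1G332700, Prupe.6G284000, Prupe.6G058300, Prupe.6G195800, Prupe.4G039400, Prupe.6G084100, Prupe.1G303500, Prupe.2G272300, Prupe.1G090500, Prupe.1G424300, Prupe.2G010900, Prupe.6G298900, Prupe.6G299100, Prupe.6G236700 and Prupe.3G091700. Of these, Prupe.6G284000 stood out by level beside Prupe.2G305200, with 44.9 FPKM in the control against 119 FPKM with the yeast. In 7 of the 25 the control value was under 1 FPKM, where the pseudocount understates the ratio.

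In the downward direction 17 further genes of the middle class had differences from -2.77 to -1.04. They had 2.05 to 68.3 FPKM in the control and 0.403 to 31.5 FPKM in the yeast-treated library. Beside Prupe.6G021700 and Prupe.6G250100 they were Prupe.1G038000, Prupe.5G058200, Prupe.7G133200, Prupe.3G153300, Prupe.1G121300, Prupe.7G192600, Prupe.1G498800, Prupe.3G153100, Prupe.7G253800, Prupe.1G121200, Prupe.2G243400, Prupe.5G131800, Prupe.1G463900, Prupe.5G073200 and Prupe.1G413500. Of the 17, Prupe.5G073200 had the highest control level, with 68.3 FPKM against 31.5 FPKM in the yeast-treated library.

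Long intronless genes that differed were mostly higher. Prupe.4G164000, 1970 bases on the minus strand of Pp04 from 9518616 to 9520585, had 0.767 FPKM in the control against 7.27 FPKM with the yeast, a difference of 2.23 and a ratio of 9.48 (counting interval 6.91 to 13.7). Prupe.4G092500, 1842 bases on the plus strand of Pp04 from 4632678 to 4634519, had 27.4 and 86.8 FPKM, a ratio of 3.17 (2.98 to 3.37) on 1352 and 4018 fragments. Prupe.1G016600, 1553 bases on Pp01 from 1177720 to 1179272, had 0.802 and 3.69 FPKM. The other 9 higher genes of this class, Prupe.6G178700, Prupe.3G011300, Prupe.1G146300, Prupe.6G329500, Prupe.8G119300, Prupe.8G130200, Prupe.1G514400, Prupe.1G367800 and Prupe.5G062000, had differences from 1.002 to 1.33. Of these Prupe.6G178700 was the most abundant, with 14.1 and 37.0 FPKM.

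The 4 lower long genes include the largest downward difference of all members. Prupe.3G306600, 1545 bases on the plus strand of Pp03 from 26802546 to 26804090, had 72.6 FPKM in the control against 6.71 FPKM with the yeast, on 3004 and 260 fragments. Its difference was -3.255 and its ratio 0.0924 (counting interval 0.0810 to 0.105), close to the ratios of the shorter genes above. Prupe.3G132500, 1924 bases on Pp03 from 13736852 to 13738775, had 20.5 and 3.52 FPKM. The other 2 were low: Prupe.6G332700 had 1.68 and 0.130 FPKM, and Prupe.3G291500 had 4.59 and 1.58 FPKM.

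**Figure D4:**
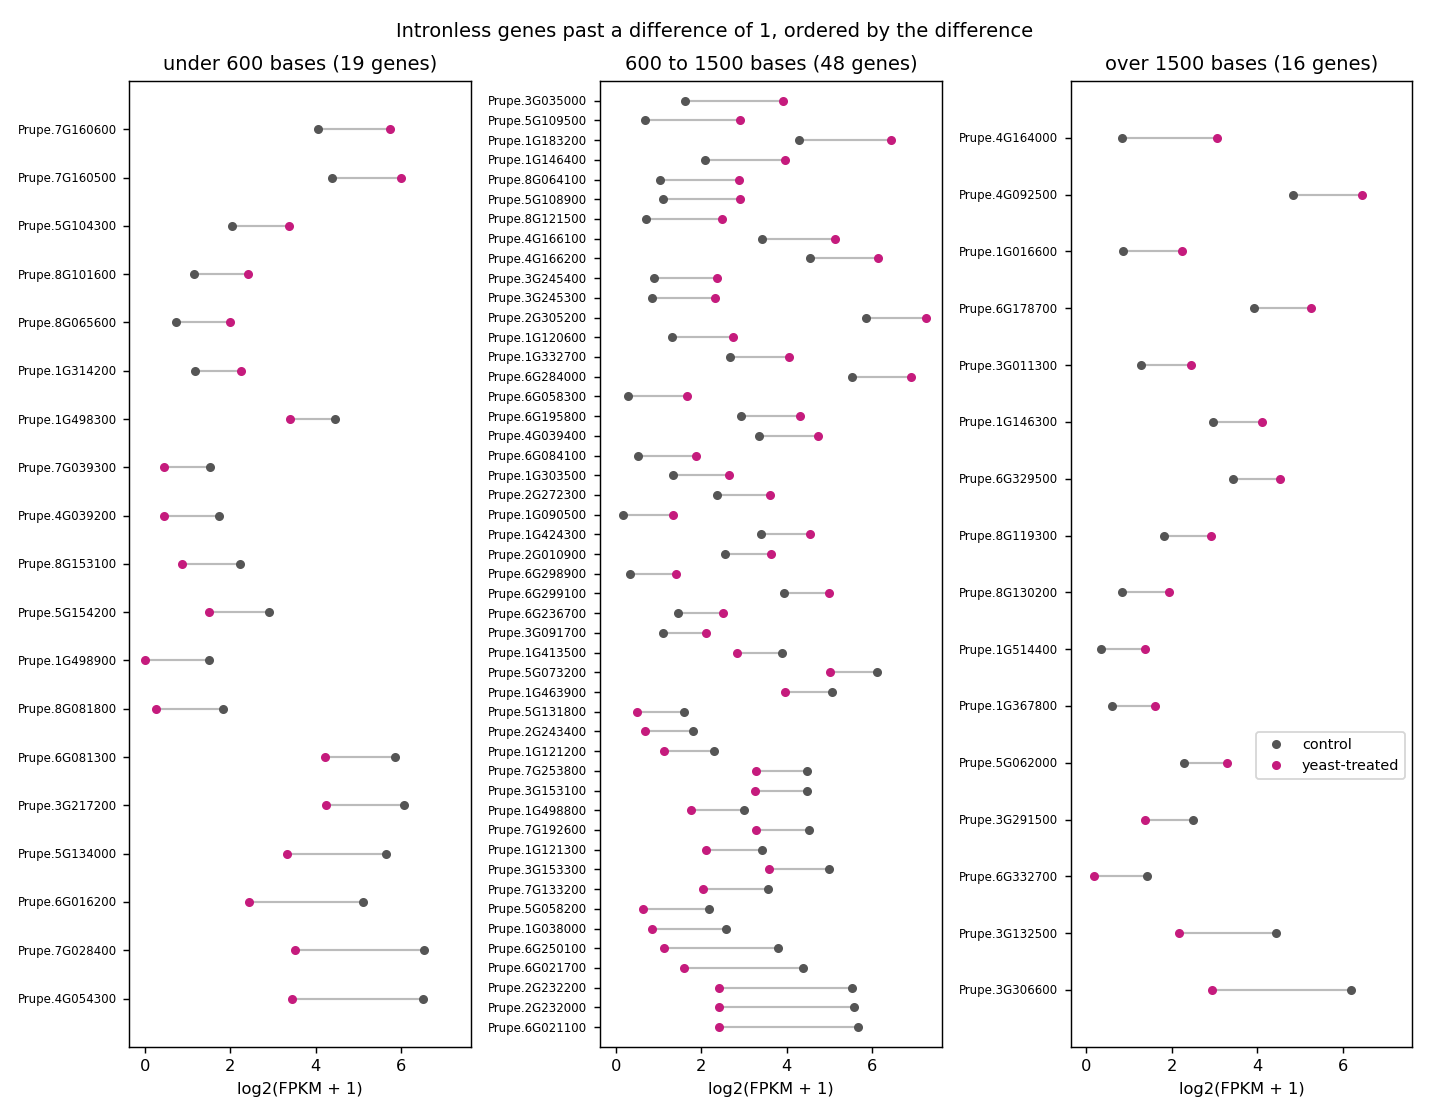
The 83 intronless genes past a difference of 1, in 3 panels by length class, with log2(FPKM + 1) on the x axis and the control (grey) and yeast-treated (magenta) values of each gene joined by a line. Genes are ordered by the difference from the most upward at the top. Prupe.3G306600 in the long class and Prupe.6G021100 in the middle class have the longest lines.

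Some values stand close to the limits used. Just past the difference of 1 were Prupe.5G062000 (1.002) and Prupe.1G367800 (1.009), and just short of it Prupe.1G447700 and Prupe.1G182200 (both 0.99). In the other direction the nearest were Prupe.1G498300 and Prupe.1G413500 (both -1.04) inside and Prupe.6G060300 (-0.99) and Prupe.7G193700 (-0.98) outside. At the limit of 1 FPKM, Prupe.5G120500 reached 1.002 FPKM in its higher library and Prupe.3G112800 0.998 FPKM. Of the 83 genes, 5 had fewer than 30 fragments in both libraries, and in 82 the counting interval of the ratio left out 1. The latter gives no separate support, since the genes were chosen by the difference between the same 2 libraries.

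Overlapping transcripts bear on few of these calls. Of all members 189 overlap another gene's transcript, 87 of them one listed on another strand or without a strand. It is unknown here whether the libraries kept strand. Among the 83 genes past the difference there were 6 with an overlap, 5 of them on another strand. Prupe.3G011300 had 1.42 FPKM in the control against 4.42 FPKM with the yeast, and lies under a spliced new transcript of the plus strand with 52.5 FPKM in the control and 0 in the yeast-treated library. Prupe.1G314200 lies inside a spliced gene of the other strand, Prupe.1G314100, whose main transcript had 51.3 FPKM in the control against 63.6 FPKM with the yeast. The part of such overlaps in the values was not tested.

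Intronless genes also lay next to each other. With no other annotated gene between them, 244 members (17.0%) formed 115 groups: 104 pairs, 8 groups of 3 and 3 groups of 4. These groups hold 129 adjacent pairs of members, and 78 pairs (60.5%) share a strand, compared with 50.9% of 7111 adjacent pairs of measured spliced genes. Of the members in groups, 28 (11.5%) were past a difference of 1, 18 of them higher and 10 lower. Of the 1192 members outside groups, 55 (4.61%) were past it, compared with 3.03% of all annotated genes measured. Reads of near-identical neighbours may be split between them, so single values in such groups are uncertain; no sequences were compared.

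Where both neighbours passed the difference, they did so in the same direction and on the same strand. This held for 6 of the 129 pairs of members (4.65%), 4 higher and 2 lower, and none (0) had opposite calls. Among adjacent pairs of spliced genes 18 of 7111 (0.253%) were past the difference in the same direction, and 2 had opposite calls. Whether the difference between these shares exceeds that between samples could not be tested with 1 library per group. In another 18 pairs of members (14.0%) 1 gene alone was past it, compared with 4.60% of the pairs of spliced genes and 5.07% of those of all annotated genes measured.

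The 4 higher pairs lay on Pp01, Pp03, Pp04 and Pp07. On Pp07 they are the 2 short genes Prupe.7G160500 and Prupe.7G160600 given above, which add up to 35.55 FPKM in the control against 115.6 FPKM with the yeast. On Pp04, Prupe.4G166100, from 9634891 to 9635565, had 9.74 and 33.8 FPKM, and Prupe.4G166200, from 9640233 to 9641308, had 22.4 and 69.9 FPKM. A new transcript of the other strand spans both and had a listed 0 in the control against 4.49 FPKM with the yeast. Its part in their values was not tested. On Pp03, Prupe.3G245300 had 0.806 and 4.02 FPKM and Prupe.3G245400 had 0.852 and 4.20 FPKM, so that the members of this pair were nearly equal in each library. On Pp01, Prupe.1G146300 had 6.80 and 16.1 FPKM and Prupe.1G146400, 18260 bases farther on, had 3.24 and 14.5 FPKM.

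Both lower pairs lay at the end of a group of 4 plus-strand genes on Pp01. In the first, from 9496652 to 9542661, Prupe.1G121200 had 3.91 FPKM in the control against 1.21 FPKM with the yeast, and Prupe.1G121300 had 9.76 and 3.31 FPKM. The other members did not pass the difference and lay on either side of their control value, Prupe.1G121000 with 11.5 and 8.14 FPKM and Prupe.1G121100 with 2.25 and 3.23 FPKM. In the second group, from 41299371 to 41315215, all 4 were below their control value. Prupe.1G498600 had 22.9 and 18.2 FPKM, Prupe.1G498700 had 41.9 and 35.1 FPKM, Prupe.1G498800 had 6.96 and 2.38 FPKM, and Prupe.1G498900 had 1.84 and 0 FPKM. The 2 genes before it, Prupe.1G498300 with 20.8 and 9.61 FPKM and Prupe.1G498400 with 51.3 and 36.7 FPKM, were below as well, with 1 intronless gene listed at 0 in both libraries between them and the group.

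**Figure D5:**
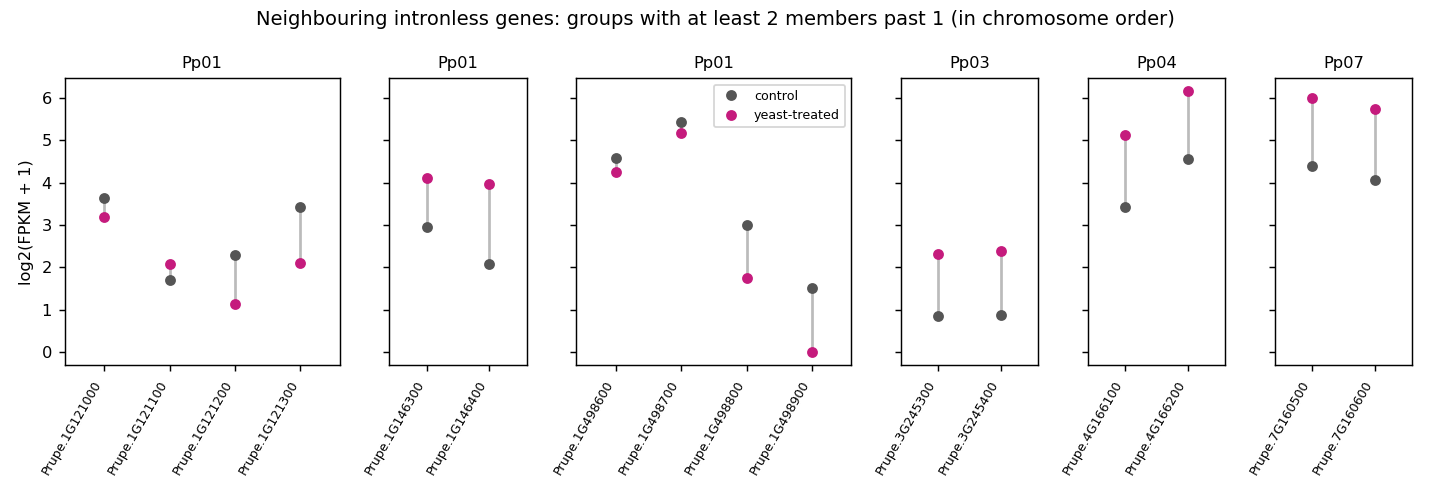
The 6 groups of neighbouring intronless genes in which at least 2 members passed a difference of 1, in chromosome order, with log2(FPKM + 1) in the control (grey) and yeast-treated (magenta) library. In the 4 pairs both genes are higher with the yeast. In both groups of 4 the last 2 genes are lower.

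Another 2 of the 11 groups of 3 or more held 1 gene past the difference. On Pp02, from 27560942 to 27572894, all 3 genes were above their control value: Prupe.2G272300 had 4.14 FPKM in the control against 11.3 FPKM with the yeast, Prupe.2G272400 had 24.3 and 36.1 FPKM, and Prupe.2G272500 had 4.66 and 8.16 FPKM. On Pp08, from 9707582 to 9713142, Prupe.8G065600 had 0.654 and 2.98 FPKM, while Prupe.8G065400 had 2.43 and 3.34 FPKM and Prupe.8G065500 had 1.91 and 1.88 FPKM. The other 7 groups of 3 or more held none. On Pp08 from 11365948 to 11402420, 1 of these had all 3 genes below their control value, with sums of 158.9 and 97.7 FPKM. Its differences were -0.96 at Prupe.8G080100, -0.77 at Prupe.8G080200 and -0.46 at Prupe.8G080300. The group Prupe.4G182100 to Prupe.4G182300 on Pp04 also had all 3 below, with sums of 47.76 and 37.95 FPKM. In the groups Prupe.7G236100 to Prupe.7G236300 and Prupe.8G263200 to Prupe.8G263400 all 3 were above. Both genes lay on the same side of their control value in 62.8% of adjacent pairs of members, compared with 53.6% of pairs of spliced genes.

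Counting all genes past the difference, 14 consecutive pairs lay within 60 kb of each other, of which 12 (85.7%) had the same direction, 6 higher and 6 lower. Among spliced genes past the difference it was 40 of 64 such pairs (62.5%), and among all annotated genes 65 of 97 (67.0%). The 12 pairs include the 6 adjacent pairs given above, and the limit of 60 kb was not planned beforehand. With 14 pairs this is a description of these genes only. Those not adjacent include Prupe.2G232000 with Prupe.2G232200 and Prupe.6G021100 with Prupe.6G021700, described above. On Pp03, Prupe.3G153100 had 21.2 FPKM in the control against 8.51 FPKM with the yeast, and Prupe.3G153300, 10891 bases farther on, had 30.6 and 10.9 FPKM. A single intronless gene under 1 FPKM lies between them. The 2 pairs of opposite direction were Prupe.1G120600 with Prupe.1G121200 on Pp01 and Prupe.4G039200 with Prupe.4G039400 on Pp04.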

How the data were processed

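RNA from wound tissue was sequenced in 2 libraries, 1 per treatment, grouped by their treatment label. The submitters' processing notes list HISAT2 and HTSeq 0.6.1 without their roles. Genome build, annotation version and assembler were not stated in the labels or headers. The authors deposited FPKM values per gene (27806 rows) and per transcript, and, per the file headers, coverage as a signal of mean reads over each base of a transcript. Positions are those of the deposited transcript tables, counted from 1.

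Members were found from the exon numbers of all transcripts under a gene name. The gene value was compared as log2(FPKM + 1), with no test. Coverage divided by FPKM gave 8.04 and 7.54 gigabases of fragments; 300 bases, the commonest product of coverage and length in barely covered transcripts, was taken as 1 fragment. Fragments are those of a gene's own annotated transcript. In 57 members this transcript is no longer than 300 bases, so their fragment numbers and counting intervals are approximate. In 67 members, in loci merged with another gene, the gene value is not that of this transcript. Python 3.11.15, pandas 2.3.3 and SciPy 1.17.1 were used. The code of the calling rule was checked on simulated data with counting error alone. Such data hold no spread between fruit, so this gives no support to the calls.

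The members and lists were chosen with earlier results of these data known. By rule, the text names in each class the 3 largest differences each way and the 3 highest means, members of neighbouring groups of 3 or more with a gene past 1, and other genes past 1 by identifier; further genes were chosen after their values were seen. Lists by product name and promoter motifs were not used here, since no names or sequences were matched.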

Additional observations from a re-analysis of the deposited data

How the results depend on the processing

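The counts of 46 higher and 37 lower intronless genes depended most on the pseudocount, the threshold and the filter. A pseudocount of 0.1 gave 95 higher and 59 lower members: 21 and 17 under 600 bases, where the main setting had more lower than higher members, 51 and 34 with 600 to 1500, and 23 and 8 over 1500. A pseudocount of 5 gave 15 and 15: 2 and 6, 10 and 7, and 3 and 2 from the shortest class to the longest. At a difference of 2 there were 4 and 11: 0 and 4, 3 and 5, and 1 and 2, with more lower than higher members in each class. With a filter of 5 FPKM, 29 higher members were left, with 3 higher and 8 lower under 600 bases and 7 and 2 over 1500. By construction, larger settings of these 3 choices let fewer weakly expressed genes pass. The median difference of 0.04 was 0 with no filter and 0.02 (0.018 before rounding) under trimmed mean scaling. The 115 groups of neighbours became 68 on the same strand only and 868 when intronless genes under 1 FPKM were included, an alternative chosen after seeing the data. The other 80 of 112 values stayed within 1.5 times of the count, or inside the interval of the median. That 95% interval, 0.0186 to 0.0663, came from the ranks of the members in the same 2 libraries. It takes genes as independent and holds no error between fruit. The 80 values include upper quartile scaling, sums of annotated transcripts and rows with shared values left out. They also include merged loci or genes with fewer than 30 fragments left out, which were chosen after seeing the data. Of 135 values for the 27 named genes none (0) changed sign past the threshold and 29 moved beyond counting error. Of the 18 named genes past a difference of 1, 3 were short of it with a pseudocount of 5: Prupe.5G104300 (0.82), Prupe.1G016600 (0.58) and Prupe.6G332700 (-0.38). Without its merged locus, the difference of Prupe.1G183200 was 5.87. Lists by product name and motifs were not run. No paired analysis was possible because neither treatment had a second library, and none could be left out. In the shortest class 99 of 233 members had fewer than 30 fragments in both libraries.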

Other observations

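Intronless genes that did not reach 1 FPKM also lay side by side. With them included, 2217 intronless genes formed 868 stretches with no spliced gene between them, and 465 of these stretches held no measured gene. There were 10 stretches of 8 genes or more, the longest of 13 genes on Pp05 from 11378465 to 11435157. In that stretch 2 genes were measured, Prupe.5G108900 with 1.16 FPKM in the control against 6.52 FPKM with the yeast and Prupe.5G109000 next to it with 0.235 and 1.38 FPKM, and the other 11 stayed at or under 0.408 FPKM. A stretch of 9 genes on Pp08 from 19398044 to 19418255 was listed at 0 in both libraries throughout. In 19 of the 43 stretches with a gene past a difference of 1, that gene was the single measured one. How often the other stretches with measured genes held a single one was not counted. Prupe.6G021100, with 49.9 and 4.35 FPKM, stood beside 7 intronless genes at or under 0.102 FPKM.

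Another 64 measured genes have annotated transcripts of 1 exon each but also a spliced new transcript under their name, and so are not among the members. Their median was 11.5 FPKM in the control against 11.1 FPKM with the yeast. Of these, 1 was higher, Prupe.3G149700 with 82.6 and 169 FPKM, and 1 lower, Prupe.2G085000 with 209.8 and 101 FPKM.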
